A study of Mus musculus with 12 samples.

Results

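Iron handling was followed in colonic crypt RNA through 10 genes. They were Ncoa4, which encodes the cargo receptor that delivers ferritin to the lysosome, its pseudogene Ncoa4-ps, the ferritin subunit genes Fth1 and Ftl1, the uptake genes Tfrc and Slc11a2, the export genes Slc40a1 and Heph, and the iron regulatory protein genes Aco1 and Ireb2. They were taken by symbol from a table of 55471 genes, and the set had been proposed because Ncoa4 and Ncoa4-ps were lower in CBPAAp53-floxed than in CBPWTp53-floxed crypts. The genes were thus selected on the counts of these 2 groups, and those values are given as a description with no test. RNA came from crypts of 12 female C57BL/6J mice aged 8 weeks, with 3 mice in each of 4 groups. CBPAA mice carry a knock-in in every cell that replaces the phosphorylated serines of the coactivator CBP (the product of Crebbp) with alanines, and their CBPWT littermates carry unaltered CBP. All 4 groups carry floxed p53 (Trp53) alleles. In the CBPWTp53ΔIEC and CBPAAp53ΔIEC groups, Cre driven by the Villin promoter deletes p53 in intestinal epithelial cells, so p53 is kept in other cells, whereas the CBPWTp53-floxed and CBPAAp53-floxed groups keep intact p53. The crypts were released with EDTA and lysed whole, and in such bulk RNA fewer cells of a type and less RNA per cell cannot be told apart.

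The libraries held 11177430 to 18029125 counted reads, and 14610 genes passed the filter on low counts, the 10 iron genes among them. Levels are given in TPM, the share of reads corrected for transcript length. Trp53 stood at 27.9 ± 2.94 TPM (SD, n = 3) in CBPWTp53-floxed and 29.2 ± 5.28 TPM in CBPAAp53-floxed crypts, against 4.29 ± 1.10 TPM in CBPWTp53ΔIEC and 5.28 ± 0.763 TPM in CBPAAp53ΔIEC crypts. All 12 listed markers of colonic epithelium were detected, with sums of 20387 to 38919 TPM. Transcripts of Paneth cells, which reside in the small intestine and not in the healthy colon, stood out in 4 libraries. The summed level of 6 Paneth cell genes (Lyz1, Defa17, Defa24, Defa30, Itln1 and Mmp7) was 16325 TPM in CBPWTp53ΔIEC replicate 1, 4123 TPM in CBPAAp53ΔIEC replicate 3, 2239 TPM in CBPAAp53ΔIEC replicate 1 and 930 TPM in CBPAAp53-floxed replicate 2, against 23.9 to 261 TPM in the other 8 libraries. The summed level of 11 small intestine markers was 6313 TPM in CBPWTp53ΔIEC replicate 1, 3539 TPM in CBPAAp53ΔIEC replicate 3 and 3153 TPM in CBPAAp53-floxed replicate 2. It was 1703 TPM in CBPAAp53ΔIEC replicate 1 and 771 to 1701 TPM in the other 8 libraries. CBPWTp53ΔIEC replicate 1 also had the lowest correlations with its own group (0.952 and 0.953). The source of the Paneth cell transcripts in these 4 Paneth-rich libraries was not tested. The values of the iron genes that changed most without them are given both ways. Markers of leukocytes summed to 49.8 to 89.9 TPM, most of it Cd14 (45.4 to 83.1 TPM), while Ptprc reached at most 1.26 TPM and Lyz2 at most 1.63 TPM, with the iron-recycling macrophage genes Spic, Cd163 and Vsig4 at 0 in 12 of 12 libraries. Erythroid markers summed to at most 1.69 TPM, stromal markers to at most 6.73 TPM and endothelial markers to at most 2.22 TPM.

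Cells store iron inside ferritin, a hollow shell built from heavy (FTH1) and light (FTL1) subunits. NCOA4 binds the heavy subunit and carries ferritin into autophagosomes, and lysosomal breakdown of the shell then returns the iron, a process known as ferritinophagy. Iron enters from transferrin through the receptor TFRC or as the ferrous ion through SLC11A2 (DMT1), and it leaves through ferroportin (SLC40A1) with the help of the ferroxidase hephaestin (HEPH). When iron is scarce, the iron regulatory proteins ACO1 (IRP1) and IREB2 (IRP2) bind iron-responsive elements, short RNA hairpins that block translation when they lie in a 5′ untranslated region and stabilise the message when they lie in the 3′ untranslated region of Tfrc. Much of this control therefore acts on translation and protein stability, which RNA counts do not measure. In the intestine these genes are best known for the absorption of dietary iron in the duodenum, and the colon absorbs little.

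The pseudogene is shown next to its parent because nearly the whole of its sequence is found in Ncoa4. Ncoa4 lies at chr14:32159865-32179855 on the plus strand of GRCm38. Ncoa4-ps, a processed pseudogene named Gm6768 in GENCODE release M21, is a single exon of 1878 bases at chr12:119260978-119262855 on the plus strand. It aligned without gaps from the start codon of the transcript Ncoa4-202 through its stop codon, and 1876 of 1878 bases (99.9%) were identical. The 2 substitutions were A1312G and G1533A, counted from 1 at the first base of the pseudogene with the base of Ncoa4 first. Both windows are coding in Ncoa4 and are printed 5′ to 3′ with the differing base in capitals:
Ncoa4, chr14:32176516-32176556, plus strand: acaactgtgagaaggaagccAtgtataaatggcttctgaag
Ncoa4-ps, chr12:119262269-119262309, plus strand: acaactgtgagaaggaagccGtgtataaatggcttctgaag
Ncoa4, chr14:32176737-32176777, plus strand: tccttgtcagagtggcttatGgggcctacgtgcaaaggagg
Ncoa4-ps, chr12:119262490-119262530, plus strand: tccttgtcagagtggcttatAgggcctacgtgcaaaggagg
Of the 1779 windows of 100 bases in Ncoa4-ps, 88.8% were identical to a window of Ncoa4-202, so a read from most of its length names neither gene. Of the 3966 windows of Ncoa4-202, 39.8% were shared, and the rest of the parent's row is sequence of its own. How reads matching both loci were counted is not given in the sources used here, and the split of counts between Ncoa4 and Ncoa4-ps is therefore uncertain.

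The iron-responsive elements of the ferritin, ferroportin and transferrin receptor messages are shown because they are the sites through which the 2 iron regulatory proteins act on these members. Transcripts of GENCODE release M21 on GRCm38 were searched on the sense strand for a C, 5 bases, the loop CAGTGN and 5 bases that pair with the first 5, G-U pairs allowed. The 30-base windows are printed 5′ to 3′ in the sense of the transcript, with the 6 loop bases in capitals:
Fth1, 5′ untranslated region, chr19:9982732-9982761, plus strand: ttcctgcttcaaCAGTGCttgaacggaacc
Ftl1, 5′ untranslated region, chr7:45459778-45459807, minus strand: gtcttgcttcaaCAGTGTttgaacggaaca
Slc40a1, 5′ untranslated region, chr1:45925464-45925493, minus strand: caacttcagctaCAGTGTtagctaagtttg
Tfrc, 3′ untranslated region, chr16:32631219-32631248, plus strand: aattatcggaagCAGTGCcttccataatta
Tfrc, 3′ untranslated region, chr16:32631598-32631627, plus strand: cattatcgggagCAGTGTcttccataatgc
Tfrc, 3′ untranslated region, chr16:32631663-32631692, plus strand: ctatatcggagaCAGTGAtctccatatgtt
Tfrc, 3′ untranslated region, chr16:32631710-32631739, plus strand: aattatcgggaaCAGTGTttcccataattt
Tfrc held 4 matches and was the 1 gene among 21901 coding genes with at least 3. The pattern itself was found in 294 of the 21901 (1.34%). No match to these letters was present in the transcripts of Ncoa4, Slc11a2, Heph, Aco1 or Ireb2. The search allowed no bulge or mismatch within the 5 pairs, so a gene without a match may still hold an element.

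The 10 genes differed widely in TPM, which depends on the length taken for each gene. By mean TPM over 12 libraries, Fth1 stood first at 2223 ± 396 TPM (SD), followed by Ftl1 at 1615 ± 165 TPM and Tfrc at 151 ± 27.9 TPM. Together the ferritin messages made 3838 ± 508 TPM, and Fth1 alone took 0.305% of all counted reads on average (0.218% to 0.462%). The ratio of Fth1 to Ftl1 TPM averaged 1.38 and ranged from 1.04 to 1.68, so the heavy chain message exceeded the light chain message in every library. Slc40a1 came next at 57.0 ± 9.64 TPM, then Aco1 at 43.4 ± 4.16 TPM, Heph at 43.1 ± 5.16 TPM and Ireb2 at 32.9 ± 5.68 TPM. Ncoa4-ps at 17.7 ± 4.76 TPM, Ncoa4 at 14.3 ± 3.59 TPM and Slc11a2 at 13.8 ± 2.33 TPM closed the order. Aco1 and Heph did not differ beyond their spread, nor did Ncoa4 and Slc11a2. Ncoa4-ps overlapped Ncoa4 in its range over all libraries but was the higher of the pair in TPM within 12 of 12. That order depends on the length taken for Ncoa4, whose annotated exons cover 9365 bases, against 4065 in the transcript Ncoa4-202. Ncoa4-ps has 1878 bases, and in reads it was the lower of the pair. The ferritin cargo was represented by far more message than its receptor.

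Within each library Ncoa4-ps moved closely with its parent. It received 0.247 ± 0.0188 reads for each read of Ncoa4 (SD, n = 12), with a range of 0.204 to 0.269, and on the length-corrected scale its TPM was 1.23 ± 0.0936 times that of Ncoa4. The counts behind these values were 425 to 1279 reads for Ncoa4 and 108 to 308 reads for Ncoa4-ps per library. Given the shared sequence, the pair cannot be read as independent measurements.

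Ncoa4 was highest in CBPWTp53-floxed crypts. Normalised CPM, counts scaled to library sizes adjusted by the TMM method and not to transcript length, were 67.5, 66.8 and 71.0 in the 3 CBPWTp53-floxed libraries and 46.1, 36.6 and 47.2 in the 3 CBPAAp53-floxed libraries. They were 39.7, 51.6 and 45.9 normalised CPM in CBPWTp53ΔIEC and 45.8, 52.2 and 58.2 normalised CPM in CBPAAp53ΔIEC crypts. The 3 CBPWTp53-floxed libraries lay above the other 9, which overlapped one another. Ncoa4-ps stood at 17.2, 17.9 and 17.1 normalised CPM in CBPWTp53-floxed and at 11.3, 7.49 and 12.4 in CBPAAp53-floxed crypts. It stood at 10.1, 12.8 and 11.7 normalised CPM in CBPWTp53ΔIEC and at 12.3, 12.3 and 13.1 in CBPAAp53ΔIEC crypts. In the pseudogene row, which is no independent measurement, the CBPWTp53-floxed libraries also lay above the other 9. CBPAAp53-floxed replicate 2, a Paneth-rich library, was the lowest for both rows.

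**Figure D1:**
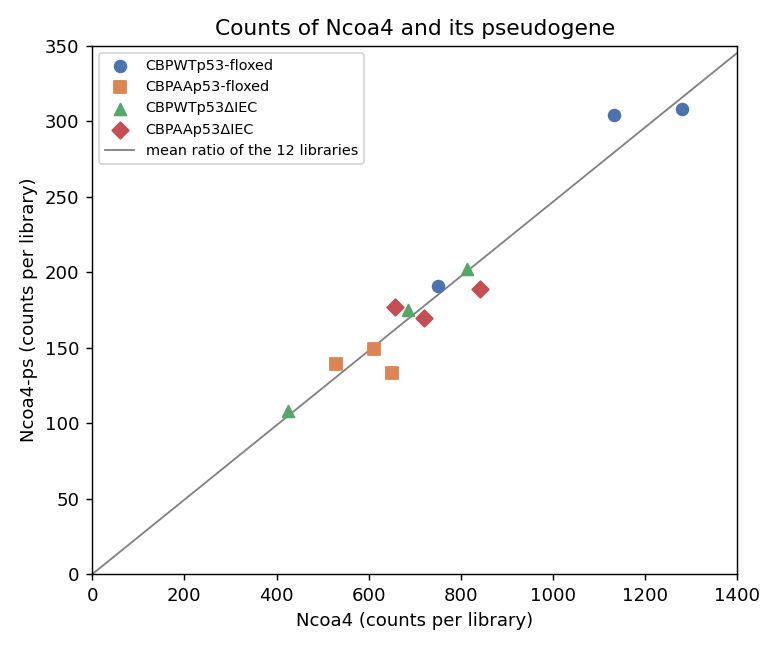
Reads of Ncoa4-ps (vertical axis) against reads of Ncoa4 (horizontal axis), as deposited counts, 1 point per library coloured by group, with a line at the mean ratio. The points follow a common ratio that averaged 0.247, with a range of 0.204 to 0.269.

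In CBPAAp53-floxed vs. CBPWTp53-floxed crypts, the contrast on which the genes were selected, edgeR's quasi-likelihood fit gave Ncoa4 a log2 fold change of −0.66 (SE 0.13) and Ncoa4-ps one of −0.75 (SE 0.17). The group means were 43.3 ± 5.80 against 68.4 ± 2.29 normalised CPM for Ncoa4, and 10.4 ± 2.57 against 17.4 ± 0.459 normalised CPM for Ncoa4-ps (SD, n = 3). With the reads of both rows summed, the log2 fold change was −0.68, between the values of the 2 rows. Over all genes, 0% of 14610 were called by edgeR at an adjusted p under 0.05 and an absolute log2 fold change above 0.5, 1174 had an unadjusted p under 0.05, and DESeq2 called 33. The libraries of the 2 groups did not overlap for Ncoa4, Ncoa4-ps, Tfrc and Heph, each lower in CBPAAp53-floxed on the normalised CPM scale, and 19.4% of all tested genes did not overlap either. The remaining log2 fold changes lay between −0.24 (Tfrc) and 0.23 (Fth1), with 0.21 for Ftl1, −0.18 for Slc40a1 and Ireb2, −0.10 for Heph and 0.05 for Slc11a2 and Aco1. Without CBPAAp53-floxed replicate 2, a Paneth-rich library, Fth1 came to −0.034, Ftl1 to 0.059 and Slc11a2 to −0.014. Without the 4 Paneth-rich libraries Ncoa4 and Ncoa4-ps both had −0.56, and Fth1 had −0.031.

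**Figure D2:**
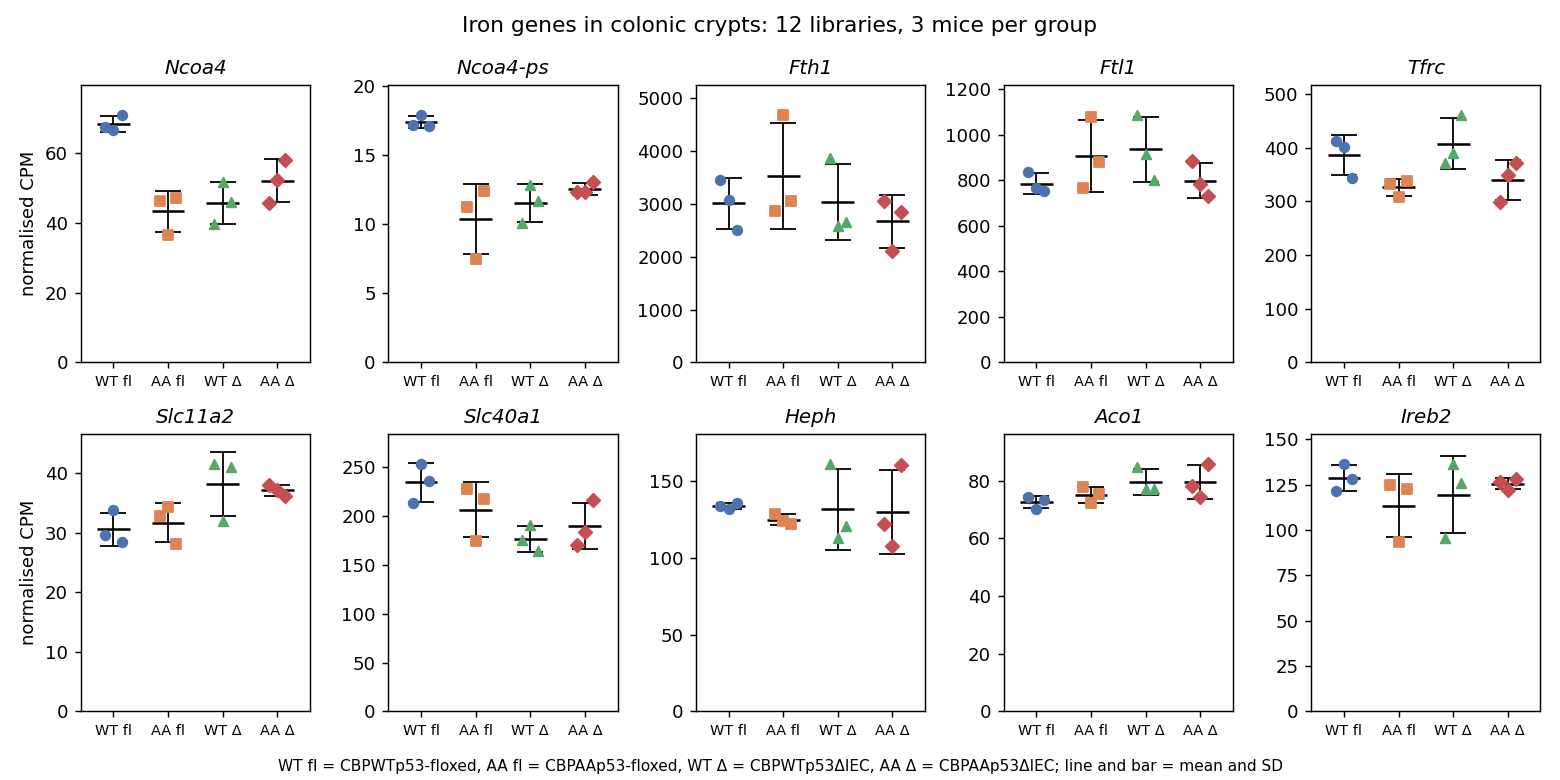
Normalised CPM of the 10 iron genes by group, 1 point per library, with the group mean and SD (n = 3), each panel with its own vertical axis. Ncoa4 and Ncoa4-ps are highest in the 3 CBPWTp53-floxed libraries, a group on which they were selected, whereas the ferritin genes overlap across the 4 groups.

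When p53 was deleted on both sides, the CBP genotypes could be compared in libraries outside the contrast on which the genes were selected. The genes and tests were still chosen with earlier results of these data known. In CBPAAp53ΔIEC vs. CBPWTp53ΔIEC crypts Ncoa4 had a log2 fold change of 0.19 (SE 0.13, adjusted p = 0.985 from edgeR) and Ncoa4-ps one of 0.12 (SE 0.17, adjusted p = 0.985 from edgeR). The means were 52.1 ± 6.16 against 45.7 ± 5.96 normalised CPM for Ncoa4 and 12.6 ± 0.424 against 11.5 ± 1.37 normalised CPM for Ncoa4-ps (SD, n = 3), and the libraries overlapped. Without the 4 Paneth-rich libraries the value for Ncoa4 was 0.10, in a fit that kept 1 library of CBPAAp53ΔIEC. The lower level seen in CBPAA crypts with intact p53 was thus not detected between the groups lacking p53. Of the 10 genes, 0 were called by edgeR and 0 by DESeq2 in this comparison, in which edgeR called 0.00684% of all genes (1 of 14610). Tfrc alone had an unadjusted p under 0.05, against 521 of all 14610 genes. Tfrc stood at 299, 348 and 371.2 normalised CPM in CBPAAp53ΔIEC against 371.4, 389.95 and 461 in CBPWTp53ΔIEC crypts, a log2 fold change of −0.26 (SE 0.12, adjusted p = 0.985 from edgeR). Its groups met on that scale without overlapping, as 9.26% of tested genes did not overlap, and in TPM they did overlap, at 129 to 153 against 128 to 218. The other 7 log2 fold changes lay between −0.23 (Ftl1) and 0.11 (Slc40a1). The median over the 10 genes was −0.01, as it was over all genes.

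The fold of Ncoa4 upon p53 deletion had opposite signs in the 2 CBP genotypes. In CBPWT crypts Ncoa4 was lower in p53ΔIEC than in p53-floxed libraries, with a log2 fold change of −0.58, and Ncoa4-ps followed at −0.59. In CBPAA crypts the values were 0.27 and 0.28. The difference between these responses, their interaction, was 0.85 for Ncoa4 and 0.87 for Ncoa4-ps on the log2 scale. Without CBPAAp53-floxed replicate 2 the CBPAA values were 0.15 and 0.085, and without the 4 Paneth-rich libraries they were 0.16 and 0.062, with CBPWT values of −0.49 and −0.51 and differences of 0.66 and 0.57. These 3 contrasts reuse libraries on which the pair was selected, so no test is given for it here. In 0.00684% of all genes (1 of 14610) the interaction was called. Among the 8 other iron genes 0 were called by edgeR or DESeq2 and 0 had an unadjusted p under 0.05, and the largest in size was that of Ftl1 (−0.44, SE 0.21, adjusted p = 0.486 from edgeR).

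**Figure D3:**
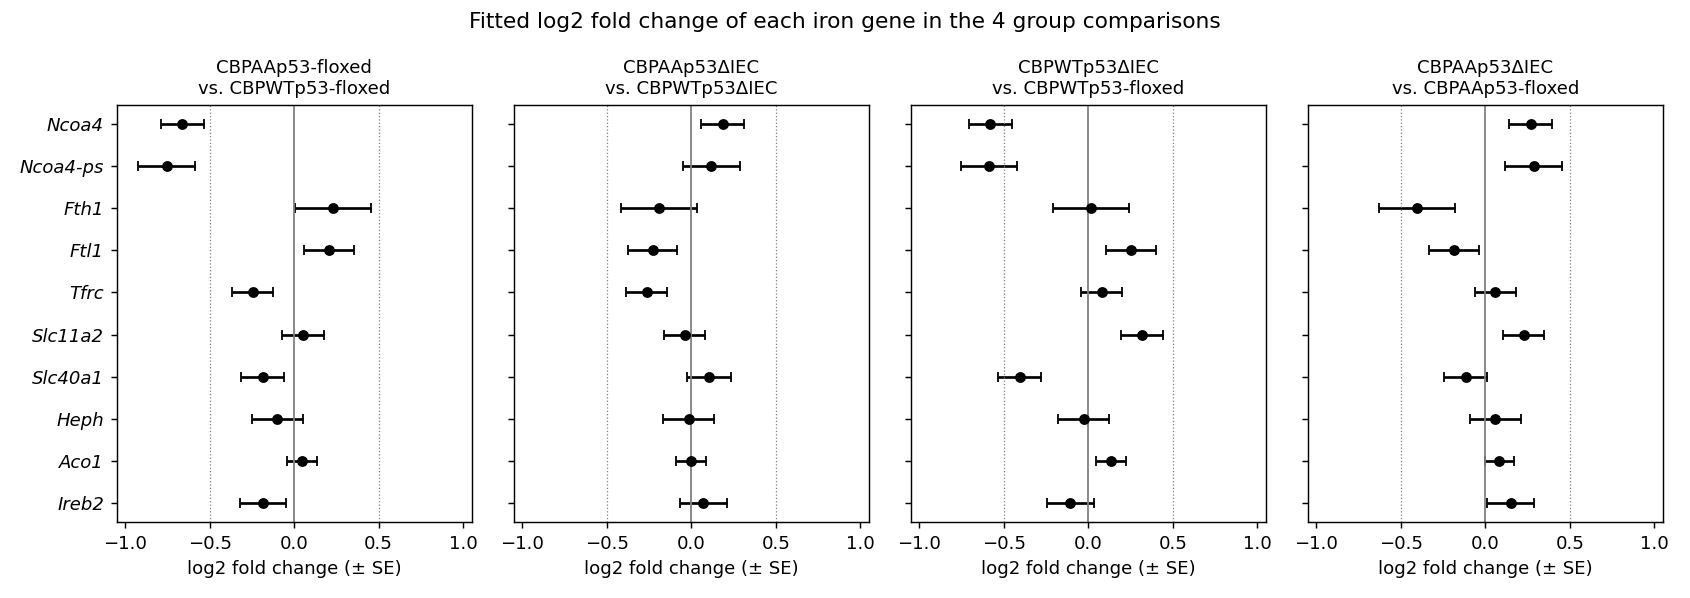
Log2 fold changes of the 10 iron genes (horizontal axis) with their standard errors in the 4 group comparisons of the edgeR fit, dotted lines marking a size of 0.5. Ncoa4 and Ncoa4-ps sit at −0.66 and −0.75 in CBPAAp53-floxed vs. CBPWTp53-floxed crypts and at 0.19 and 0.12 in CBPAAp53ΔIEC vs. CBPWTp53ΔIEC crypts.

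Ferritin messages varied widely among mice. Fth1 stood at 3455, 3077 and 2499.6 normalised CPM in CBPWTp53-floxed, and at 2857, 4686 and 3049.7 in CBPAAp53-floxed crypts. It stood at 3867, 2585 and 2664 normalised CPM in CBPWTp53ΔIEC, and at 3051, 2098 and 2854 in CBPAAp53ΔIEC crypts. The highest Fth1 values of all 12 belonged to the Paneth-rich libraries CBPAAp53-floxed replicate 2 and CBPWTp53ΔIEC replicate 1. Ftl1 was highest in the same 2 libraries, at 1078 and 1087 normalised CPM, with 729 to 916 in the other 10. In TPM, CBPAAp53-floxed replicate 2 was again the highest for Fth1 (3195 TPM) and Ftl1 (1904 TPM), but CBPWTp53ΔIEC replicate 1, at 2368 and 1724 TPM, lay among the rest. The part of Paneth cell transcripts in these values was not tested. The p53-averaged log2 fold change of Fth1 was −0.20 (SE 0.16, adjusted p = 0.503 from edgeR). With the 4 Paneth-rich libraries left out it was −0.35, in a fit that kept 1 library of CBPAAp53ΔIEC. Ferritin pseudogenes held at most 0.0207% of the reads of Fth1 and 1.46% of those of Ftl1. Since 78.6% of the 100-base windows of the main Ftl1 transcript were shared with 6 other genes, the counts of Ftl1 also depend on how reads matching several genes were counted. Among the 6, Gm22133 and Gm10252 overlap Ftl1 at its own locus.

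The p53 comparison was made within each CBP genotype and as an average of both. In CBPWTp53ΔIEC vs. CBPWTp53-floxed crypts 460 genes (3.15%) were called. Ncoa4 and Ncoa4-ps share the CBPWTp53-floxed libraries with the contrast that chose them and are left without a call, and the value of Ncoa4 ranged from −0.68 to −0.49 with each library left out in turn. Among the 8 other iron genes, 0 were called by edgeR and 0 by DESeq2, and 2 had an unadjusted p under 0.05, Slc11a2 and Slc40a1. Over all genes, 3053 of 14610 had an unadjusted p under 0.05 in this comparison. In CBPAAp53ΔIEC vs. CBPAAp53-floxed crypts 0.0274% of all genes (4 of 14610) were called, and of the 8 genes 0 were called by edgeR or DESeq2 and 0 had an unadjusted p under 0.05. Averaged over the CBP genotypes, p53 deletion gave 511 called genes (3.5%), of which 0 were among the 10 iron genes by edgeR or DESeq2. Slc11a2 and Slc40a1 had an unadjusted p under 0.05, as did 3201 of all 14610 genes. The difference between the p53-floxed groups, on which the pair was selected, cancels in this average. The opposite values of Ncoa4, −0.58 in CBPWT and 0.27 in CBPAA crypts, partly offset each other in it. For Ncoa4 and Ncoa4-ps the average therefore describes neither genotype. Across the 10 genes the median log2 fold change was 0.02, against 0.01 over all genes.

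Slc11a2, the importer of ferrous iron, had the smallest p of the 10 iron genes in the p53-averaged comparison. It stood at 29.6, 33.8 and 28.5 normalised CPM in CBPWTp53-floxed and at 32.9, 34.3 and 28.1 in CBPAAp53-floxed crypts. In the p53ΔIEC groups it stood at 41.6, 32.01 and 41.0 normalised CPM with CBPWT and at 38.1, 37.2 and 36.3 with CBPAA. In CBPAA crypts the p53ΔIEC libraries lay above the p53-floxed ones, as for 15% of tested genes in either direction, whereas in CBPWT crypts the groups overlapped through CBPWTp53ΔIEC replicate 2. The p53-averaged log2 fold change was 0.27 (SE 0.09, unadjusted p = 0.00781, adjusted p = 0.0908 from edgeR), which did not pass the test. A two-sided exact permutation test of log2(TPM + 0.1), with mice exchanged within each CBP genotype, gave a difference of 0.32 and p = 0.01, where 0.005 is the smallest p that its 400 arrangements allow. The mean was 15.4 TPM in the 6 p53ΔIEC against 12.3 TPM in the 6 p53-floxed libraries, and with each library left out in turn the difference stayed between 0.24 and 0.37 (p = 0.005 to 0.035, exact permutation test). This p is unadjusted and 1 of 10 computed, 1 for each gene. Without the 4 Paneth-rich libraries the log2 fold change was 0.27, in a fit that kept 1 library of CBPAAp53ΔIEC. Slc11a2 shares 402 exonic bases with the antisense gene Gm5475, Ftl1 shares 355 with Gm10252 and Heph shares 29 with Hsf3, and the strand setting of the counting is not given in the sources used here.

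**Figure D4:**
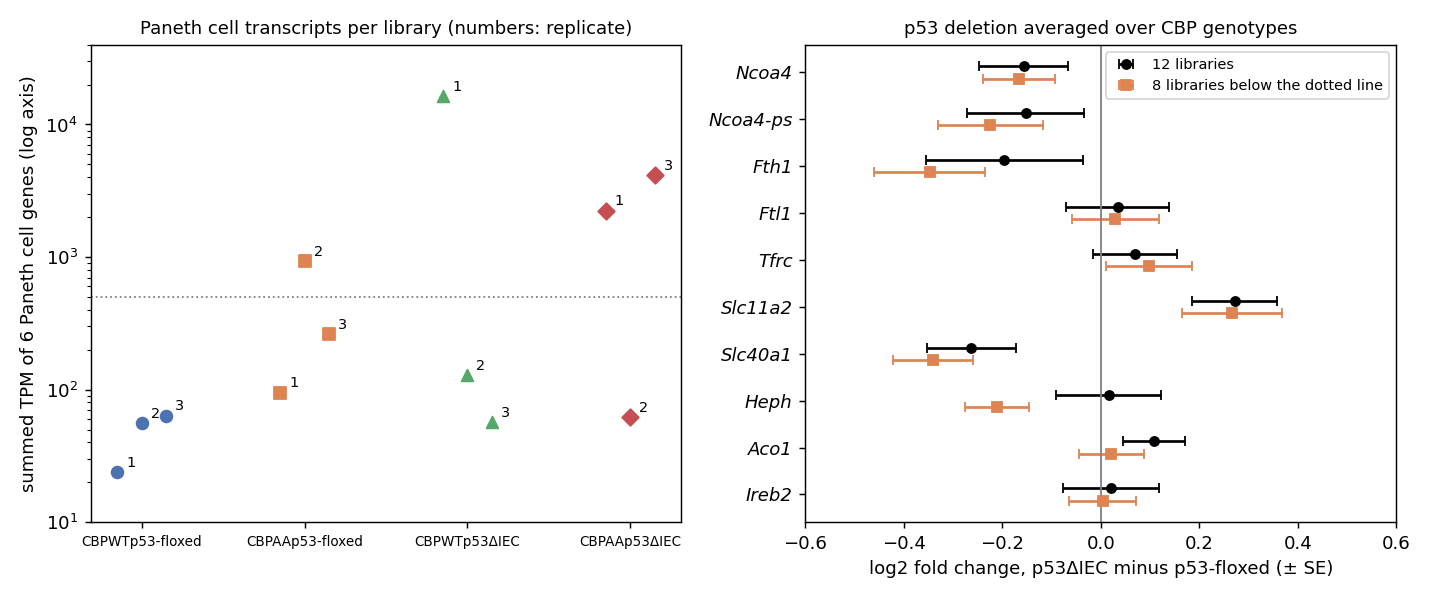
Left, summed TPM of 6 Paneth cell genes (log axis) in each library by group, with replicate numbers and a dotted line at 500 TPM, and right, the p53-averaged log2 fold change (± SE) of each iron gene with all 12 libraries (circles) and with the 8 below the line (squares). The sum is 930 to 16325 TPM in 4 libraries, and leaving them out moves Slc40a1 from −0.26 to −0.34 and Heph from 0.02 to −0.21.

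Slc40a1, which encodes the exporter ferroportin, had values of the opposite sign. It stood at 213, 253 and 235 normalised CPM in CBPWTp53-floxed and at 227, 174 and 217 in CBPAAp53-floxed crypts. It stood at 175, 190.5 and 164 normalised CPM in CBPWTp53ΔIEC and at 170.4, 183 and 216 in CBPAAp53ΔIEC crypts. With CBPWT the p53ΔIEC libraries lay below the p53-floxed ones, as 30.8% of tested genes did not overlap in this comparison, and with CBPAA the groups overlapped. The log2 fold change was −0.41 in CBPWT (SE 0.13, adjusted p = 0.0923), −0.12 in CBPAA (adjusted p = 0.71) and −0.26 on average (SE 0.09, adjusted p = 0.113, all from edgeR). Without the 4 Paneth-rich libraries the average was −0.34, still under the fold cutoff of 0.5. In that fit CBPAAp53ΔIEC kept 1 library, assumed to vary like the others. The exact permutation test on TPM gave a difference of −0.21 (p = 0.165). The interaction of Slc40a1 was 0.29, with an adjusted p of 0.561 from edgeR.

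Of Heph, Aco1 and Ireb2, none passed the test with all libraries. Heph, the ferroxidase partner of ferroportin, ranged from 108 to 161 normalised CPM. Its p53-averaged log2 fold change was 0.02 with all libraries (adjusted p = 0.947 from edgeR). Without the Paneth-rich ones it was −0.21, in a fit that kept 1 library of CBPAAp53ΔIEC. In TPM Heph ranged from 34.5 to 53.4. Its highest values in normalised CPM, 161 and 160.5, belonged to CBPWTp53ΔIEC replicate 1 and CBPAAp53ΔIEC replicate 3, the 2 libraries richest in Paneth cell transcripts, and the part of those transcripts was not tested. Aco1, which turns from an aconitase into an RNA-binding protein when its iron-sulfur cluster is lost, lay between 70.1 and 85.9 normalised CPM. On that scale the CBPWTp53ΔIEC libraries lay above the CBPWTp53-floxed ones, as 30.8% of tested genes did not overlap in this comparison. In TPM these groups did overlap, at 40.1 to 49.9 against 40.4 to 44.0. The p53-averaged log2 fold change of Aco1 was 0.11 (SE 0.06, adjusted p = 0.33 from edgeR), and the exact permutation test gave 0.15 (p = 0.08). Ireb2, whose protein is degraded when iron is plentiful, lay between 93.2 and 137 normalised CPM, lowest in the Paneth-rich libraries CBPAAp53-floxed replicate 2 and CBPWTp53ΔIEC replicate 1. Its p53-averaged log2 fold change was 0.02 (adjusted p = 0.927 from edgeR). Tfrc at 0.07 (adjusted p = 0.677) and Ftl1 at 0.03 (adjusted p = 0.882, both from edgeR) did not pass the test on average either, and the exact permutation test on TPM gave p = 0.36 to 0.705 for Ftl1, Fth1, Tfrc, Ncoa4, Ncoa4-ps, Ireb2 and Heph.

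The wider iron network was described with 9 lists of 129 genes, none of them among the 10, of which 112 were tested. In CBPWTp53ΔIEC vs. CBPWTp53-floxed crypts 2 of the 112 (1.79%) were called, against 3.15% of all genes. They were Abcb6, a porphyrin transporter, higher at 1.74 ± 0.373 against 0.798 ± 0.0631 TPM (log2 fold change 1.14, SE 0.26, adjusted p = 0.0361 from edgeR), and Gabarapl1, an ATG8-family protein of the autophagosome membrane, lower at 55.3 ± 4.72 against 80.5 ± 2.94 TPM (−0.50, SE 0.12, adjusted p = 0.044 from edgeR). In each of the other 5 comparisons 0 of 112 were called by edgeR. Averaged over CBP genotypes, 3 listed genes had an adjusted p under 0.05 from edgeR without reaching the fold cutoff, 2.68% of the 112 against 4.93% of all genes. They were Hfe, a partner of the transferrin receptors (−0.39, adjusted p = 0.0211), Gabarapl1 (−0.34, adjusted p = 0.0428) and Slc25a37, the mitochondrial iron importer mitoferrin 1 (0.25, adjusted p = 0.0438).

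Autophagy machinery, on which ferritinophagy depends, was detected throughout, with 33 of 33 genes tested. Its median log2 fold change was 0.00 in CBPAAp53-floxed vs. CBPWTp53-floxed, 0.00 in CBPAAp53ΔIEC vs. CBPWTp53ΔIEC and −0.04 in the p53-averaged comparison, where 8 of 33 genes were above 0. After Gabarapl1, the smallest p-values of the p53-averaged comparison belonged to the autophagy receptor gene Calcoco1 (−0.41, adjusted p = 0.0546) and to Map1lc3a (−0.34, adjusted p = 0.162). Between the p53ΔIEC groups they belonged to the kinase gene Ulk2 (0.35), Calcoco1 (0.41) and Rb1cc1 (0.29), each with an adjusted p of 0.985. The 6 other genes with an NCOA name, coactivators unrelated to ferritin, had medians of −0.19, 0.10 and −0.06 in the same 3 comparisons. Ncoa7, Ncoa1 and Ncoa2 came first by p in the p53-averaged comparison (−0.33, −0.15 and −0.11, adjusted p = 0.232, 0.356 and 0.579), and Ncoa7, Ncoa3 and Ncoa1 between the p53ΔIEC groups (−0.30, 0.18 and 0.10).

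Iron uptake genes were tested in 8 of 12 cases, and 6 of the 8 were above 0 in the p53-averaged comparison. The metalloreductase gene Steap1 (0.57, adjusted p = 0.0679), transferrin itself (Trf, 1.24, adjusted p = 0.102) and the lysosomal channel gene Mcoln1 (0.15, adjusted p = 0.237) came first. Trf rested on a wide spread, at 6.27 ± 4.43 TPM in CBPWTp53ΔIEC against 1.54 to 2.51 TPM on average in the other groups. The duodenal ferric reductase gene Cybrd1, at 0 to 0.446 TPM, and the iron hormone gene Hamp, at 0 to 1.29 TPM, were too low to be tested. Of export and systemic control genes, 4 of 10 were tested. Hamp2 (−1.91, SE 0.60, adjusted p = 0.0875) and Smad7 (0.11, adjusted p = 0.584) followed Hfe. Among the iron chaperones, which load ferritin, Pcbp1 had 0.22 (adjusted p = 0.129) and Pcbp2 had −0.17 (adjusted p = 0.258). All these p-values are from edgeR.

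Of the 9 iron-sensing genes, 1 had a p53-averaged value above 0. The hypoxia factor gene Epas1 (−0.26, adjusted p = 0.117), Vhl (−0.18, adjusted p = 0.173) and Egln1 (−0.17, adjusted p = 0.25) came first. Fbxl5, the ligase that removes IREB2 when iron is present, had −0.08 (adjusted p = 0.575), and Herc2, a ligase that acts on NCOA4, had −0.04 (adjusted p = 0.896). In CBPAAp53-floxed vs. CBPWTp53-floxed crypts Herc2 had −0.43 (SE 0.19, adjusted p = 0.618) and Fbxl5 −0.17 (SE 0.11, adjusted p = 0.667), neither past the test. The haem list had 12 of 19 tested genes above 0 on average, led by the haem exporter gene Flvcr1 (0.36, adjusted p = 0.0597), Abcb6 (0.63, adjusted p = 0.0627) and Uros (0.55, adjusted p = 0.129), and haem oxygenase Hmox1 had 0.34 (adjusted p = 0.389). Of 22 tested genes of mitochondrial iron and iron-sulfur clusters, 10 were above 0, with Nubp2 (0.19, adjusted p = 0.152) next after Slc25a37. Of 9 tested ferroptosis genes 5 were above 0, with Lpcat3 (0.22, adjusted p = 0.0997), Aifm2 (−0.16, adjusted p = 0.253) and Acsl4 (0.55, adjusted p = 0.283) first. All these p-values are from edgeR. The summed level of proliferation markers moved with p53 state, from 182 to 263 TPM in the p53-floxed to 215 to 659 TPM in the p53ΔIEC libraries, and its part in these values was not tested.

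**Figure D5:**
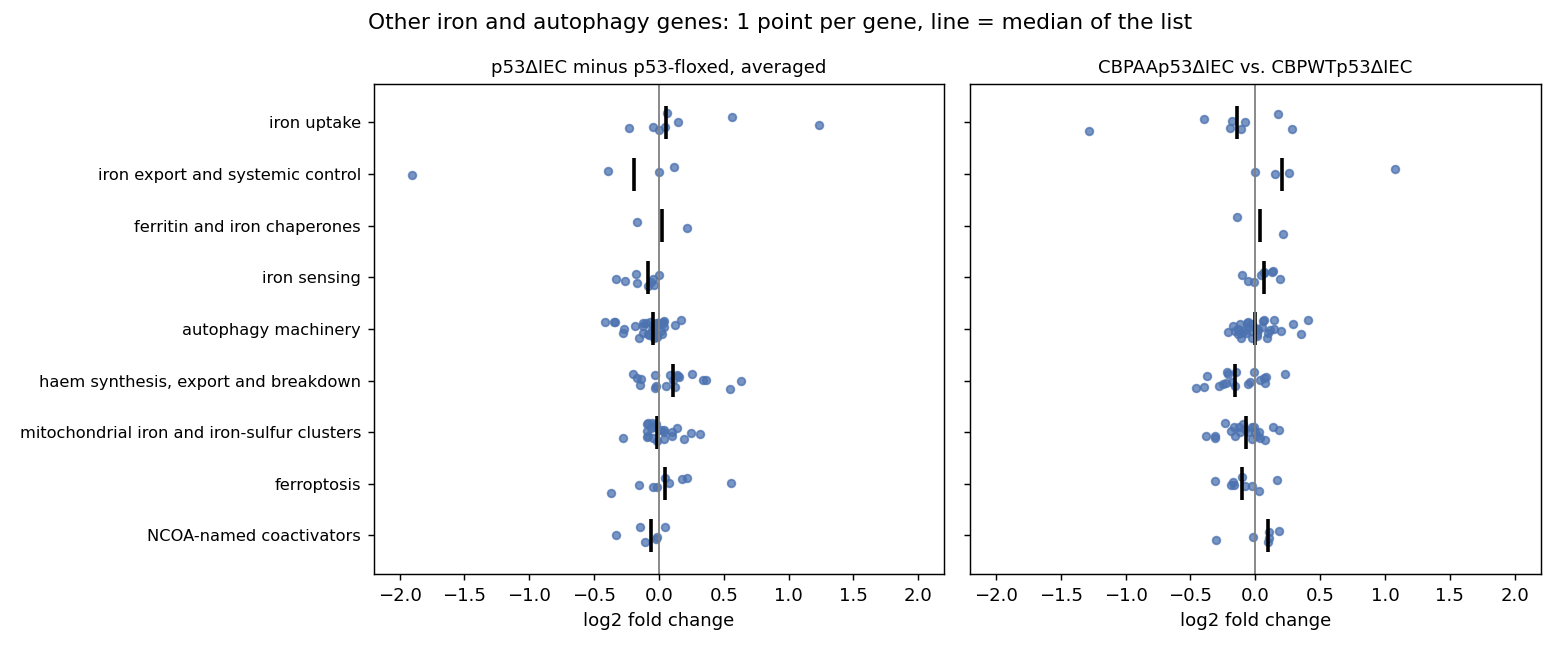
Log2 fold changes (horizontal axis) of the 112 tested genes of 9 lists, 1 point per gene with a line at the median of each list, in the p53-averaged comparison (left) and in CBPAAp53ΔIEC vs. CBPWTp53ΔIEC crypts (right). The medians of the 33 autophagy genes are −0.04 and 0.00, and the farthest points are Hamp2 at −1.91 on the left and Trf at −1.29 on the right.

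Between the p53ΔIEC groups the listed genes showed 0 calls by edgeR, and those first by p in the lists not yet described all had an adjusted p of 0.985. Their log2 fold changes were −1.29 for Trf, −0.19 for Mcoln1, −0.39 for Steap1, 0.26 for Hfe, 1.08 for Hamp2, 0.15 for Smad7, 0.22 for Pcbp2, −0.14 for Pcbp1, 0.19 for Vhl, 0.13 for Epas1 and −0.10 for Egln1. For the haem genes Alas1 and Tmem14c they were −0.40 and −0.22. For Nubp2, Cisd1 and Lyrm4 of the iron-sulfur cluster list they were −0.31, −0.31 and −0.38, and for the ferroptosis genes Dhodh, Lpcat3 and Aifm2 they were −0.31, −0.19 and −0.17.

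The genes whose pattern over the 12 libraries was most like that of Ncoa4 were found by Pearson correlation of log2 CPM across 14610 genes, a description over 12 libraries that share tissue, depth and group structure. Beside Ncoa4-ps (r = 0.950), the 5 closest were Cebpg (0.952), Lrat (0.947), Siae (0.945), Ppara (0.940) and Kansl1l (0.936), and 26 genes outside the 10 exceeded 0.9. Ppara, which encodes a nuclear receptor for fatty acids, had 20.9 ± 1.17 TPM in CBPWTp53-floxed, 10.7 ± 3.51 TPM in CBPAAp53-floxed, 11.2 ± 2.72 TPM in CBPWTp53ΔIEC and 14.5 ± 2.96 TPM in CBPAAp53ΔIEC crypts. Lrat, which encodes the enzyme that esterifies retinol, had 9.96 ± 0.593, 5.17 ± 0.687, 5.60 ± 0.961 and 6.96 ± 0.979 TPM in the same order. Among the iron genes the correlation with Ncoa4 was 0.724 for Slc40a1, 0.687 for Ireb2, 0.362 for Tfrc and 0.11 for Heph. It was −0.297 for Aco1, −0.466 for Fth1, −0.511 for Slc11a2 and −0.725 for Ftl1. The 2 libraries with the most ferritin message in normalised CPM, CBPAAp53-floxed replicate 2 and CBPWTp53ΔIEC replicate 1, were also the 2 lowest in Ncoa4. Over the 8 libraries without the Paneth-rich ones the correlation with Ncoa4 was 0.227 for Fth1 and −0.325 for Ftl1, so the negative value of Fth1 rested on the libraries left out. The value for Ireb2 fell to 0.245 and that for Tfrc to 0.074, and that for Heph rose to 0.599. It was 0.973 for Ncoa4-ps, 0.585 for Slc40a1, −0.428 for Slc11a2 and −0.776 for Aco1.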

How the data were processed

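Colonic crypt RNA of 12 mice was sequenced after oligo(dT) selection. The submitters' processing notes name fastp 0.20.0, FastQC 0.11.9, HISAT2 2.1.0, SAMtools 1.9, featureCounts of Subread 2.0.1 and GRCm38; the strand setting and the handling of reads matching several loci are not given in the sources used here. The authors deposited raw read counts and TPM per gene and library (11177430 to 18029125 counts). The deposited log2 fold changes and p-values of 5 comparisons by the authors were not used.

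The 10 genes, the lists and the tests were chosen with earlier results of these data known. Counts were fitted in R 4.3.3 with edgeR 4.0.16 (filterByExpr at a minimum count of 10, TMM, robust quasi-likelihood fit of 4 groups over 12 libraries), with p-values adjusted by Benjamini-Hochberg over 14610 genes. A gene was called at an adjusted p under 0.05 and an absolute log2 fold change above 0.5. Mean log2(TPM + 0.1) was compared between p53 states by two-sided exact permutation within CBP genotype. Named genes were the 10, listed genes called or among the 3 smallest p of their list in the p53-averaged and CBPAAp53ΔIEC vs. CBPWTp53ΔIEC comparisons, 6 further iron genes and the 5 most like Ncoa4; 2 genes that this rule names are not reported here. Sequences and coordinates were read from GENCODE release M21 transcripts, which held 55230 of the 55471 gene identifiers. No library was a repeat of another, since the lowest chi-square per degree of freedom over 66 pairs was 6.29. Each library was 1 mouse. Alternatives were DESeq2 1.42.0, its size factors, other filters on low counts, a replicate block, fits of 2 groups, other pseudocounts and each library left out. Leaving out the 4 Paneth-rich libraries, or CBPWTp53ΔIEC replicate 1 with CBPAAp53-floxed replicate 2, was chosen after seeing the data. The fits were tested on simulated data.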

Additional observations from a re-analysis of the deposited data

How the results depend on the processing

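Precision was limited by 3 mice a group, by the uncertain split of reads between Ncoa4 and Ncoa4-ps, and by the 4 Paneth-rich libraries, whose removal left CBPAAp53ΔIEC with 1 library assumed to vary like the others. Of 1198 alternative log2 fold changes of the 10 genes, 68 changed sign, none of them past both thresholds with all libraries, and 8 fell below and 9 came past both thresholds, each of them a value of Ncoa4 or Ncoa4-ps. DESeq2 size factors moved the median of all genes by at most 0.011 (log2), and a TPM pseudocount of 1 changed no call.

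In CBPAAp53-floxed vs. CBPWTp53-floxed crypts the calls were 33 genes with DESeq2, 3 without a filter, 1 without CBPWTp53ΔIEC replicate 1 and CBPAAp53-floxed replicate 2 (the 2 doubted libraries) and 42 without the Paneth-rich ones, against 0; among the iron genes DESeq2 called 2 and the fit without Paneth-rich libraries 1. In CBPAAp53ΔIEC vs. CBPWTp53ΔIEC crypts they were 0 with the replicate block, 0 with these 2 groups alone and 8 without Paneth-rich libraries, against 1. In CBPWTp53ΔIEC vs. CBPWTp53-floxed crypts they were 863 with DESeq2, 32 with the block, 723 with 2 groups, 1133 without the doubted and 1729 without the Paneth-rich libraries, against 460; of the iron genes 2, 0, 2 and 2 were called with DESeq2, the block, 2 groups and without the doubted libraries, against 1. In CBPAAp53ΔIEC vs. CBPAAp53-floxed crypts they were 73 with DESeq2, 11 without a filter, 2 with the block, 1 with 2 groups, 7 without the doubted and 1053 without the Paneth-rich libraries, against 4. Averaged over CBP genotypes they were 304 with the block, 1126 without the doubted and 1692 without the Paneth-rich libraries, against 511. For the interaction they were 30 with DESeq2, 2 without a filter, 0 with the block, 0 without the doubted and 35 without the Paneth-rich libraries, against 1, and DESeq2 called 1 iron gene. These counts of iron genes rest on Ncoa4 and Ncoa4-ps in libraries on which they were selected, so they support nothing. The causes were not tested. Same-numbered libraries did not deviate together (18 pairs, correlations −0.526 to 0.548, median −0.0334), so they share only a number, and the block's results are given here alone.

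With 1 library left out at a time, called genes ranged from 0 to 2, 0 to 1, 1 to 906, 1 to 326, 105 to 1073 and 0 to 1 in the same order, iron genes called in CBPWTp53ΔIEC vs. CBPWTp53-floxed crypts from 0 to 2, and iron genes with an exact permutation p under 0.05 on TPM from 1 to 4, against 1. Called genes in CBPWTp53ΔIEC vs. CBPWTp53-floxed crypts were 906 without CBPWTp53ΔIEC replicate 1, 735 without CBPAAp53ΔIEC replicate 3, 253 without CBPAAp53-floxed replicate 3 and 1 to 7 without any other library of the 2 groups compared. Averaged over CBP genotypes they were 1073 without CBPWTp53ΔIEC replicate 1, 971 without CBPAAp53ΔIEC replicate 3 and 105 to 304 without any other library but CBPAAp53-floxed replicate 2. In CBPAAp53ΔIEC vs. CBPAAp53-floxed crypts they were 326 without CBPAAp53ΔIEC replicate 3.

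Signs changed as follows, on the log2 scale. In CBPAAp53-floxed vs. CBPWTp53-floxed crypts Fth1 came to −0.034 without doubted and −0.031 without Paneth-rich libraries, and Slc11a2 to −0.013 and −0.011. In CBPAAp53ΔIEC vs. CBPWTp53ΔIEC crypts, without the doubted libraries, Fth1 came to 0.030, Slc11a2 to 0.033, Heph to 0.16, Aco1 to 0.052 and Ireb2 to −0.057. Without Paneth-rich libraries Slc11a2 came to 0.030 and Ireb2 to −0.10, and Aco1 came to 0.000538 without a filter and 0.00119 with at least 10 counts in every library. In CBPWTp53ΔIEC vs. CBPWTp53-floxed crypts Fth1 came to −0.00900 without a filter, −0.22 without doubted and −0.20 without Paneth-rich libraries. Ireb2 came to 0.011 without doubted and 0.024 without Paneth-rich libraries. In CBPAAp53ΔIEC vs. CBPAAp53-floxed crypts, without Paneth-rich libraries, Heph came to −0.22, Aco1 to −0.040 and Ireb2 to −0.015. On average over CBP genotypes Heph came to −0.00325 without a filter, −0.084 without doubted and −0.21 without Paneth-rich libraries. For the interaction Fth1 came to 0.064 and Slc11a2 to 0.047 without doubted libraries, and Slc11a2 to 0.040, Heph to −0.015 and Ireb2 to −0.039 without Paneth-rich ones.

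Leave-one-out ranges that crossed 0 were, in CBPAAp53-floxed vs. CBPWTp53-floxed crypts, −0.034 to 0.36 for Fth1 and −0.014 to 0.13 for Slc11a2. They were, in CBPAAp53ΔIEC vs. CBPWTp53ΔIEC crypts, −0.30 to 0.026 for Fth1, −0.15 to 0.029 for Slc11a2, −0.20 to 0.16 for Heph, −0.064 to 0.048 for Aco1 and −0.061 to 0.18 for Ireb2. In CBPWTp53ΔIEC vs. CBPWTp53-floxed crypts they were −0.20 to 0.12 for Fth1, −0.018 to 0.14 for Tfrc, −0.20 to 0.075 for Heph and −0.21 to 0.024 for Ireb2. In CBPAAp53ΔIEC vs. CBPAAp53-floxed crypts they were −0.012 to 0.14 for Tfrc and −0.12 to 0.18 for Heph. On average they were −0.029 to 0.10 for Ftl1, −0.074 to 0.075 for Heph and −0.051 to 0.086 for Ireb2. For the interaction they were −0.092 to 0.077 for Tfrc, −0.10 to 0.26 for Heph and −0.11 to 0.00217 for Aco1. On TPM they were −0.21 to 0.012 for Ncoa4-ps, −0.026 to 0.10 for Heph and −0.00768 to 0.20 for Ireb2.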
